A study of Mus musculus with 16 samples.

Results

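The 7 genes described here encode the structural proteins of caveolae: the caveolins Cav1, Cav2 and Cav3 and the cavins Cavin1, Cavin2, Cavin3 and Cavin4. They were taken by symbol from a gene table of 35415 genes, all 7 were present, and all 7 were among the 14749 genes that passed the filter on low counts. The set was chosen by symbol with results of these data in view, and the members' levels in the 4 groups and their differences in T against C were known at that choice. The calls on these genes therefore describe them and are no independent support. An adjusted p-value over all tested genes does not allow for the choice.

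Caveolae are small flask-shaped pits of the plasma membrane, built from cholesterol-binding caveolins in the membrane and a coat of cavins on its inner face. They are abundant in endothelial cells, adipocytes and muscle fibers, where they take part in membrane reserve under stretch, lipid uptake, endocytosis and the placing of signaling receptors. Cav1, Cav2, Cavin1, Cavin2 and Cavin3 are made in many cell types, whereas Cav3 and Cavin4 are the members specific to striated muscle, where Cav3 also serves in the formation of T-tubules. Loss of Cav3 or of Cavin1 function causes muscle disease in humans.

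Gastrocnemius muscle was sequenced from 16 mice (BALB/c males), wild type in genotype and 8 weeks old when purchased, with 4 mice in each group. Group C was the untrained control, group E ran on a treadmill, group T carried a tumor of CT26 cells (a mouse colon carcinoma line), and group TE carried the tumor and ran. All mice were anesthetized and injected under the skin of the left hind limb, T and TE with CT26 cells and C and E with saline. The paper reports that tumors formed in all injected T mice but not in every TE mouse. The labels call the TE mice sequenced here tumor-bearing. E and TE ran at 14 m/min for 60 min per day on 6 days a week for 4 weeks, and C and T stood on a treadmill that did not move. All tumors came from 1 cell line injected into the limb, and which side the sequenced muscle came from is not given in the sources used here. The labels give all libraries the same batch.

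The libraries held 35628211 to 37635741 counts. The 18 myofiber markers summed to between 145000 and 178000 CPM (TMM-scaled counts relative to the library total) in every library. Some libraries stood apart in markers of other tissues. The lymph node markers summed to 199 CPM in the fourth TE mouse, against 8.57 to 10 CPM in the other TE mice, and the satellite cell and regeneration markers summed to 266 CPM in the fourth T mouse, against 133 to 152 CPM in the other T mice. The calls on the 7 genes and on the named partner genes are therefore also given without the fourth mice of T and TE. In bulk muscle, fewer cells of a type and less RNA per cell cannot be told apart.

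Per unit of transcript length, Cav1 was the most abundant of the 7 genes in all 4 groups. In group C its FPKM, the authors' library-scaled counts per kilobase of gene, was 167 ± 14 (SD, n = 4), and 0.864% of all genes in the table had a higher mean. Cavin4 and Cavin1 came next with 60.9 ± 2.02 and 60.7 ± 5.26 FPKM. Their ranges overlapped, as they did in each of the other groups.

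Cav3 and Cavin2 formed the next pair, with 48.4 ± 5.28 and 44.9 ± 5.73 FPKM in group C and overlapping ranges. Cav2 (22 ± 2.68 FPKM) and Cavin3 (18.3 ± 2.88 FPKM) were the lowest, and their ranges overlapped in all 4 groups. The order of the upper genes differed little between groups, but Cavin2 lay below Cav3 without overlap in TE, at 37.1 ± 5.38 against 48.1 ± 0.986 FPKM. In T, Cav2 had the lowest mean of the 7 genes, at 16 ± 1.06 FPKM. Among the caveolins, Cav3 lay between Cav1 and Cav2 in all 4 groups, and among the cavins, Cavin4 and Cavin1 were the upper pair.

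As a share of the summed FPKM of the 3 caveolins, Cav1 made up 70.3% ± 2.08 in C and 69.5% ± 1.57 in E, against 66% ± 1.3 in T and 65.3% ± 0.61 in TE (SD, n = 4). No mouse of T or TE reached the lowest share in C or E, which was 68%. The share of Cav3 was 20.4% ± 2.6 in C, 20.5% ± 1.98 in E, 25.4% ± 1.91 in T and 25.1% ± 0.734 in TE. Among the 4 cavins, the share of Cavin2 was 24.3% ± 1.98 in C, 23.7% ± 0.395 in E, 20.1% ± 3.52 in T and 21.6% ± 1.71 in TE, with ranges that overlapped between C and T. The share of Cavin4, which had a mean of 33% in C and 38.1% in T, also had overlapping ranges.

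Cav1 and Cav2 are neighbors on chromosome 6. In the GENCODE vM39 annotation of GRCm39, Cav2 spans chr6:17281026-17289877 and Cav1 spans chr6:17306140-17341451, both on the plus strand and with 16262 bases between them. Cav3 lies far away on the same chromosome (chr6:112436466-112449833, plus strand). The cavin genes are on separate chromosomes: Cavin1 at chr11:100847559-100861713 (minus strand), Cavin2 at chr1:51328266-51345710 (plus strand), Cavin3 at chr7:105128391-105131507 (minus strand) and Cavin4 at chr4:48663503-48674045 (plus strand). A long noncoding RNA gene, Gm15581, lies on the opposite strand across Cav1 and Cav2 and was not analysed here. The strand setting of the authors' counting is not given in the sources used here, so reads of this gene cannot be told from those of Cav1 and Cav2.

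The 250 bases before the annotated start of 4 genes are shown, the widely expressed neighbors Cav1 and Cav2, whose levels moved together, and the muscle-specific Cav3 and Cavin4. They are at chr6:17305890-17306139 for Cav1, chr6:17280776-17281025 for Cav2, chr6:112436216-112436465 for Cav3 and chr4:48663253-48663502 for Cavin4, all GRCm39, plus strand, read 5′ to 3′. Capitals mark the E-box CANNTG, the motif read by MyoD and related factors.
Cav1: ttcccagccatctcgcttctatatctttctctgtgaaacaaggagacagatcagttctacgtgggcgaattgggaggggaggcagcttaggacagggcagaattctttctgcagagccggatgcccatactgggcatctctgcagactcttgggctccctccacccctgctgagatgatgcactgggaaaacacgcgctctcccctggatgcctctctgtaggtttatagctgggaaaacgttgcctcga
Cav2: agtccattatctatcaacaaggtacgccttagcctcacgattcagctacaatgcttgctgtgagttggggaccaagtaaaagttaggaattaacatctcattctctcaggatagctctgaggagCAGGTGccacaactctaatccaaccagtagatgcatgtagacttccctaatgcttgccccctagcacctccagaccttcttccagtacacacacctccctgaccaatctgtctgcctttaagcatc
Cav3: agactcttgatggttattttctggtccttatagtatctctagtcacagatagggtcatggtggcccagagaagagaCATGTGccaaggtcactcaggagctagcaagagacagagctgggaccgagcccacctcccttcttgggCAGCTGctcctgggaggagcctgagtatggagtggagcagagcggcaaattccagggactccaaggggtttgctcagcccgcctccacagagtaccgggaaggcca
Cavin4: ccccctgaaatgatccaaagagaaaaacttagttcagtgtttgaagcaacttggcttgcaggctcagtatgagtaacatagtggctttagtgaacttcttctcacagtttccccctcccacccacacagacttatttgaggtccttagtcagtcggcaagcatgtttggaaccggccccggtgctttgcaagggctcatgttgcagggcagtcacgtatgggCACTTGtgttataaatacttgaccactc

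On either strand, an E-box was found in 66.5% of the windows of the same length before 21738 protein-coding genes. Cav3 had 2 matches, Cav2, Cavin1 and Cavin4 had 1 each, and Cav1, Cavin2 and Cavin3 had 0. TATAAA, present in 12.5% of all windows, was found in the windows of Cav1 and Cavin4. GGGCGG (29.9% of all windows) was found in that of Cavin3 with 2 matches. TTCNNNGAA, the letters read by STAT factors (7.83%), the MEF2 consensus (3.09%) and the CArG box (1.41%) had 0 matches in the 7 windows. The motifs can overlap one another, and a match is a description of letters only.

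The comparison of T with C asked how the tumor changed untrained muscle. The caveolin transcripts Cav1 and Cav2 fell, by 25% and 26%, while the muscle-specific Cav3 and Cavin4 did not pass the test in either direction. Cavin1, Cavin2 and Cavin3 did not pass it either, and Cavin2 had a point estimate of -0.34 on the log2 scale. Of the 7 genes, 2 were called at an adjusted p-value under 0.05 in the quasi-likelihood test of edgeR (Benjamini-Hochberg), both lower, against 0.678% of all genes tested called and 0.163% called lower. Of the 7, 0 also changed by over 2-fold, against 0.285% of all genes.

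**Figure D1:**
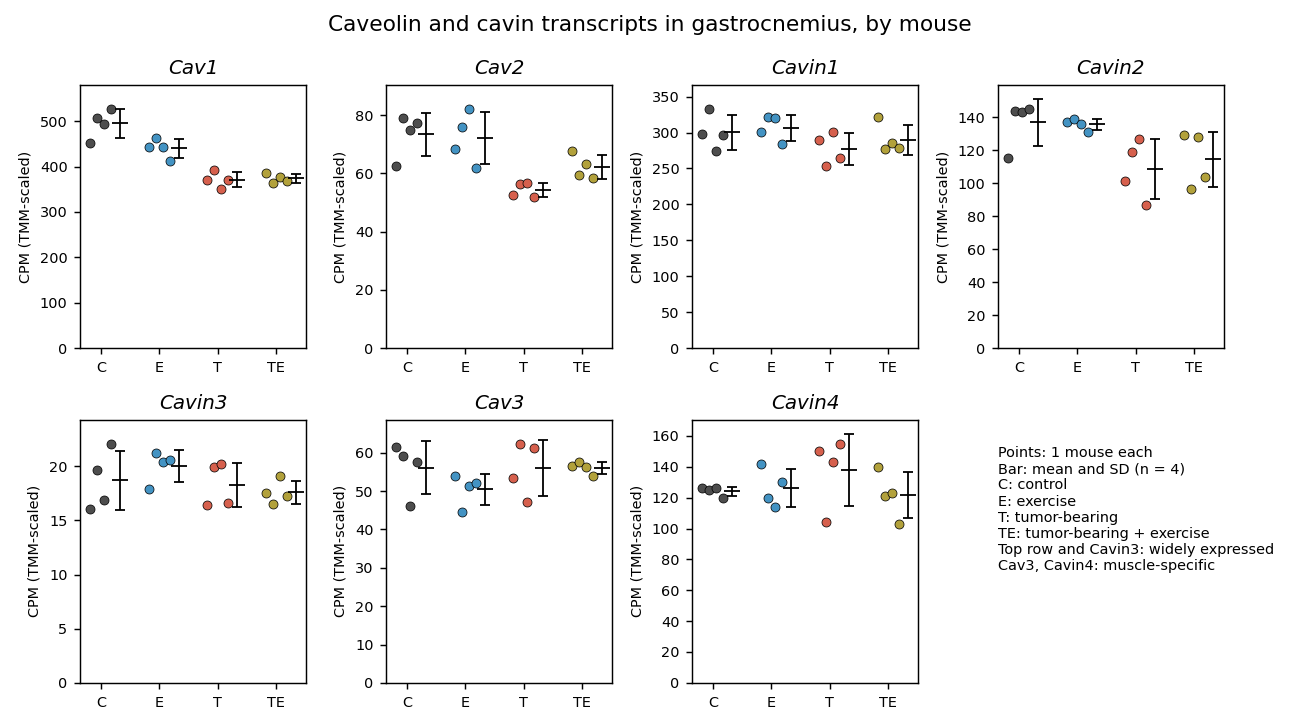
TMM-scaled CPM (y axis, from 0) of the 7 genes in each mouse, by group (x axis), with the mean and SD of 4 mice beside the points. The tumor-bearing mice of T and TE lie between 351 and 393 CPM for Cav1, below all mice of C and E, whereas Cav3 and Cavin4 overlap between T and C.

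Cav1 forms the scaffold of caveolae outside striated muscle fibers and binds many signaling proteins. Its level was 452, 506, 494 and 527 CPM in the 4 mice of C, 442, 463, 443 and 412 CPM in E, 370, 393, 351 and 370 CPM in T, and 386, 363, 378 and 368 CPM in TE. All 8 tumor-bearing mice lay below all 8 tumor-free mice, which held for 0.149% of the genes tested. The mean was 495 ± 31.7 CPM in C, 440 ± 21 in E, 371 ± 17.2 in T and 374 ± 10.2 in TE (SD, n = 4).

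In T against C, Cav1 fell by 0.41 on the log2 scale (SE 0.0597, adjusted p = 0.00412, edgeR), which placed it at rank 8 of the 14749 genes by p-value. In TE against E, its log2 fold change was -0.24 (SE 0.0596, adjusted p = 0.130), which missed the threshold, although the 4 mice of TE lay below the 4 of E. Cav1, Cavin2 and 3.95% of all genes tested had this separation of TE below E. Averaged over training, the tumor-bearing groups had a log2 fold change of -0.32 (SE 0.0421, adjusted p = 0.000775). The call in T against C was kept in all 8 fits that left out 1 mouse (adjusted p 0.00245 to 0.029) and in the fit without the fourth mice of T and TE (adjusted p = 0.0107).

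Cav2 forms hetero-oligomers with Cav1 and depends on it to reach the cell surface. Its level was 62.7, 79.2, 74.8 and 77.2 CPM in C, 68.3, 76.1, 82.2 and 62 CPM in E, 52.6, 56.4, 56.6 and 51.9 CPM in T, and 67.6, 59.6, 63.3 and 58.5 CPM in TE. The mice of T lay below those of C, as for Cav1 and for 2.83% of all genes tested, and below those of TE, which held for 1.24%. The ranges of TE and E overlapped.

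In T against C, Cav2 fell by 0.43 on the log2 scale (SE 0.0885, adjusted p = 0.0335). This call depended on single libraries. It was kept in 2 of the 8 fits that left out 1 mouse, those without the first C mouse and without the second T mouse, and without the fourth C mouse the adjusted p was 0.134. Without the fourth mice of T and TE the fold change was -0.41, with an adjusted p of 0.0606. The log2 fold change in TE against E was -0.21 (SE 0.0883, adjusted p = 0.460). Averaged over training it was -0.32 (SE 0.0625, adjusted p = 0.0134), a call kept in all 16 fits that left out 1 mouse but not without the fourth mice of T and TE together (adjusted p = 0.0502).

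Per FPKM, the ratio of Cav1 to Cav2 was 7.64 ± 0.391 in C, 6.95 ± 0.627 in E, 7.73 ± 0.479 in T and 6.8 ± 0.273 in TE. C and T overlapped, as did E and TE, and TE (highest 7.11) lay below C (lowest 7.22). Cav1 to Cav3 was 3.49 ± 0.549 in C, 3.43 ± 0.43 in E, 2.61 ± 0.248 in T and 2.6 ± 0.0952 in TE (SD, n = 4). The ranges of the Cav1 to Cav3 ratio in C (2.87 to 4.19) and T (2.36 to 2.91) overlapped at their edges. In TE its highest value was 2.66 and in E its lowest was 3.09.

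**Figure D2:**
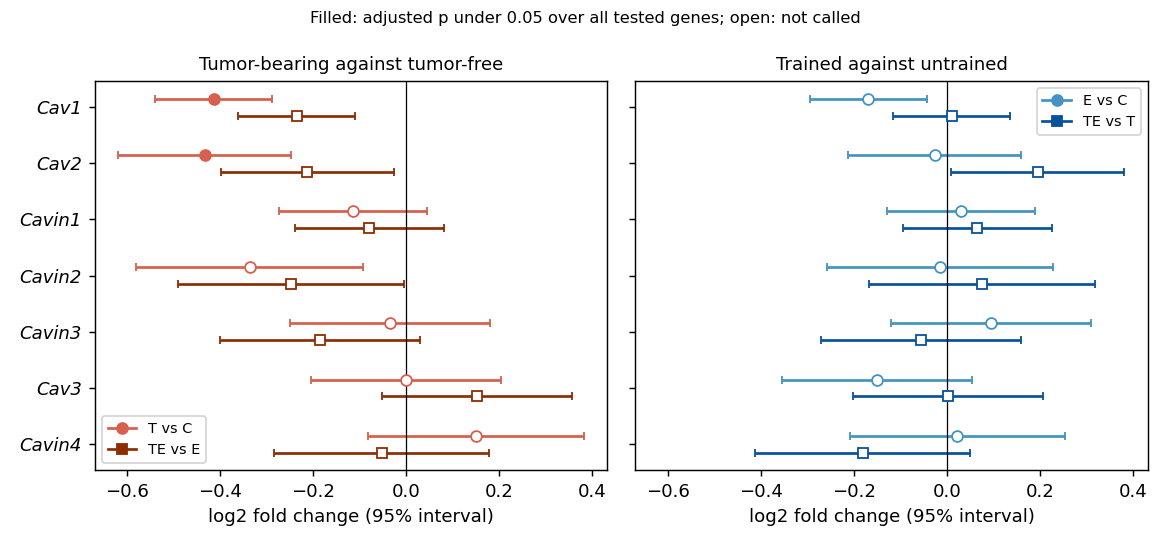
Log2 fold changes (x axis) with 95% intervals for the 7 genes, tumor-bearing against tumor-free mice on the left and trained against untrained mice on the right, each comparison resting on 4 mice a group. Filled markers, Cav1 and Cav2 in T against C, passed an adjusted p of 0.05 over all tested genes, and all other markers are open.

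Among the widely expressed cavins, Cavin2, which shapes the curvature of the membrane, had the largest difference. Its level was 115, 144, 143 and 145 CPM in C, 137, 139, 136 and 131 CPM in E, 101, 119, 127 and 86.5 CPM in T, and 129, 96.3, 128 and 104 CPM in TE. The first C mouse was low and lay within the range of T, whereas TE and E did not overlap. The log2 fold change was -0.34 in T against C (SE 0.115, adjusted p = 0.191), -0.25 in TE against E (SE 0.115, adjusted p = 0.532) and -0.29 averaged over training (SE 0.0816, adjusted p = 0.0947). The averaged value passed the threshold in 3 of 25 alternative fits, those without the third T mouse (adjusted p = 0.0408), with DESeq2 (0.0212) and with limma-voom and sample weights (0.0499).

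Cavin1, the cavin that every caveola requires, ranged from 253 to 333 CPM over all 16 mice. Its means were 300.4 ± 24.3 CPM in C, 306 ± 18 in E, 277 ± 22.2 in T and 290.1 ± 20.8 in TE, with overlap between all groups. In T against C the log2 fold change was -0.12, with a 95% interval from -0.27 to 0.04 (adjusted p = 0.526). Cavin1 relative to Cav1 was 0.364 ± 0.0347 in C, 0.417 ± 0.0108 in E, 0.449 ± 0.0547 in T and 0.464 ± 0.0221 in TE on the FPKM scale. The ranges of C and T overlapped, whereas the lowest TE value (0.451) lay above the highest of E (0.432). E (lowest 0.407) also lay above C (highest 0.395), with no tumor in either group. How often ratios of other genes separate groups in this way was not examined.

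Cavin3, which links caveolae to protein kinase C and was the lowest cavin, ranged from 16.1 to 22.1 CPM. Its log2 fold change was -0.04 in T against C (95% interval -0.25 to 0.18, adjusted p = 0.915) and -0.19 in TE against E (95% interval -0.40 to 0.03, adjusted p = 0.617). Its groups overlapped in every pairwise comparison.

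Cav3, the caveolin of the muscle fiber, was 61.4, 59.2, 46 and 57.7 CPM in C, 53.9, 44.6, 51.3 and 52.1 CPM in E, 53.4, 62.4, 47.1 and 61.3 CPM in T, and 56.6, 57.6, 56.2 and 53.9 CPM in TE. T and C overlapped over almost all of their range. The log2 fold change in T against C was 0.00, with a 95% interval from -0.21 to 0.20, so that a fall as large as the point estimate of Cav1 lay outside this interval. It was 0.15 in TE against E (SE 0.0968, adjusted p = 0.674), although the lowest TE mouse lay at the level of the highest E mouse or just above it, a separation found for 2.68% of all genes tested. Whether the change of Cav3 differed from that of Cav1 was not tested.

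Cavin4, which binds Cav3 and Cavin1 in muscle fibers, was 126, 125, 126 and 120 CPM in C, 142, 120, 114 and 130 CPM in E, 150, 104, 143 and 155 CPM in T, and 140, 121, 123 and 103 CPM in TE. C was tight and T was wide, with the second T mouse below and the other T mice above all C mice. The log2 fold change in T against C was 0.15 (95% interval -0.08 to 0.38, adjusted p = 0.571). Without the second T mouse it was 0.26 (adjusted p = 0.161), and without the fourth T mouse it was 0.088 (adjusted p = 0.793).

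The comparisons of trained with untrained mice asked whether running changed the same genes with and without a tumor. In E against C, 0 of the 7 genes were called, against 0.0881% of all genes, and 1 (Cav1) had an unadjusted p under 0.05, as had 14.2% of all genes. Its log2 fold change was -0.17 (SE 0.0596, adjusted p = 0.226). The E mice lay at 412 to 463 CPM, across the lower end of the C range of 452 to 527 CPM.

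In TE against T, 0 genes were called, against 0% of all genes, and 1 (Cav2) had an unadjusted p under 0.05, as had 5.88% of all genes. The log2 fold change of Cav2 was 0.19 (SE 0.0885, adjusted p = 0.847). That of Cav1 was 0.01, with a 95% interval from -0.12 to 0.14. DESeq2 called 0 of the 7 in either comparison. T against C and TE against T share the T mice.

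In TE against E, 0 of the 7 genes were called, against 0.231% of all genes, and 3 (Cav1, Cav2 and Cavin2) had an unadjusted p under 0.05, as had 9.23% of all genes. DESeq2 called 1 of them, Cav1, with an adjusted p of 0.0111, against 1.21% of all genes. Averaged over training, the tumor-bearing groups differed in 2 of the 7 genes, Cav1 and Cav2, both lower, against 1.36% of all genes called and 0.624% called lower. Averaged over tumor state, training gave 0 calls with edgeR and 0 with DESeq2, and 0 genes at an unadjusted p under 0.05, against 0.00678% of all genes called and 10.8% at an unadjusted p under 0.05.

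The interaction of tumor and training, which asks whether the tumor difference was the same in trained and untrained mice, gave 0 calls among the 7 genes and 0% among all genes with edgeR. Cav1 had the only unadjusted p under 0.05 (9.21% of all genes had one), with an interaction of 0.18 on the log2 scale (95% interval 0.00 to 0.36, adjusted p = 0.540). For Cav2 it was 0.22 (95% interval -0.04 to 0.48, adjusted p = 0.604). DESeq2 called 0 of the 7. The larger differences of Cav1 and Cav2 in untrained than in trained mice were thus not separated by the test.

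Over mice, some of the widely expressed members varied together. After subtraction of group means, Pearson's r of log2 CPM over the 16 libraries was 0.72 for Cav1 with Cav2, 0.64 for Cav2 with Cavin2 and 0.68 for Cavin2 with Cavin3. These were the highest of the 10 pairs of widely expressed genes within groups, and the lowest were Cav1 with Cavin1 (0.12) and Cavin1 with Cavin3 (0.20). With the group differences included, the highest were Cav1 with Cav2 (0.83), Cav2 with Cavin2 (0.82) and Cav1 with Cavin2 (0.72). The points share library depth and the other RNA in each muscle, and no p-value is given for these values.

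The 2 muscle-specific genes did not vary together. Cav3 with Cavin4 had an r of -0.07 within groups and -0.05 over all libraries. Cav3 with Cav1 had 0.04 within groups, and Cav3 with Cavin2 had -0.37. Cavin4 reached 0.35 within groups with Cavin1, its only positive value among the other 6 genes.

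**Figure D3:**
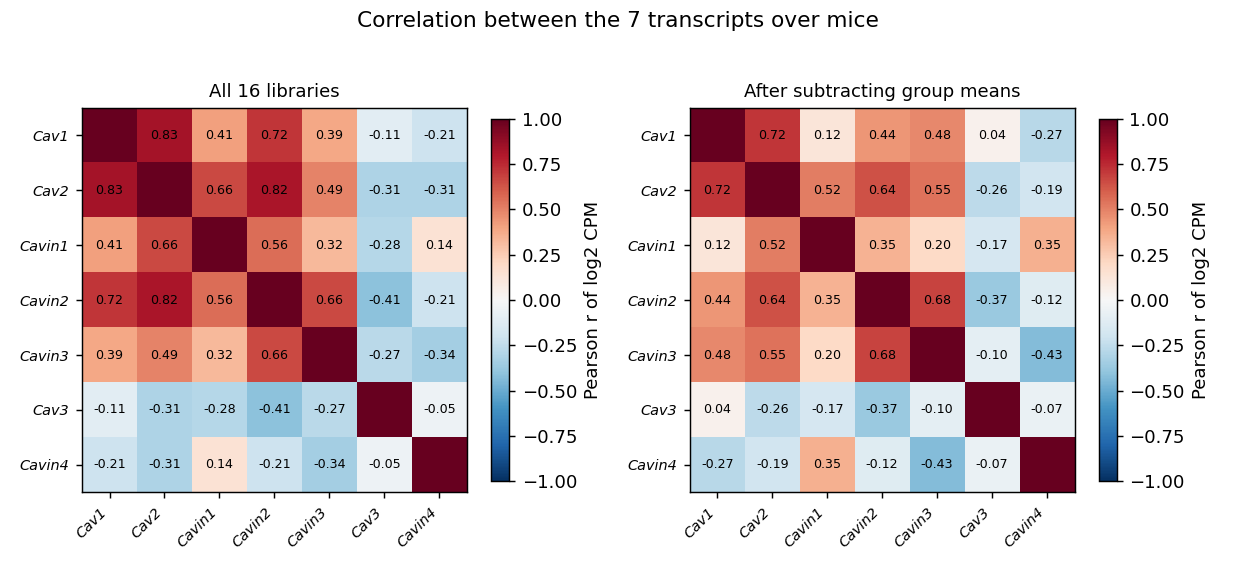
Pearson's r of log2 CPM between the 7 genes over 16 mice, with the group differences included on the left and after subtraction of group means on the right (color scale from -1 to 1). The 5 widely expressed genes are positive with one another in both panels, and Cav3 and Cavin4 have r of -0.05 and -0.07 with each other.

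The genes whose log2 CPM followed each member best over the 16 libraries, among 12359 tested genes with a mean of at least 1 CPM, differed between members. For Cav1 they were Chek2 (r = 0.93), Tspan13 (0.92) and Cd200 (0.91), with 0.68, 0.57 and 0.35 within groups. These genes were chosen by a correlation that includes the difference between tumor-bearing and tumor-free mice, so their own differences follow in part from that choice. All 3 fell in T against C, Chek2 by 1.02, Tspan13 by 0.70 and Cd200 by 0.78 on the log2 scale (adjusted p = 0.00341, 0.000314 and 0.000314, edgeR). Over the alternative fits the log2 fold change of Chek2 ranged from -1.14 to -0.61, and it was called in each of them. For Cav2 they were Marcks (0.89), Dipk2a (0.89) and Itpkb (0.85), of which Marcks, a membrane-bound kinase C substrate, fell in T against C by 0.41 (adjusted p = 0.0136, and 0.052 without the fourth C mouse). These 4 calls were kept without the fourth mice of T and TE (adjusted p 0.000567 to 0.0278).

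For Cavin1 the closest genes were Ctnna1 (0.85), Mgll (0.84) and Hic1 (0.81), and for Cavin3 they were Tspan12 (0.85), Smad2 (0.81) and Frmd6 (0.79). For Cavin2 they were Abcb1a (0.91), a transporter of the blood-vessel lining, Unc45a (0.90) and Bmp2 (0.85), with 0.86, 0.86 and 0.80 within groups. The muscle-specific members had other closest genes. Cav3 was followed by Snf8 (0.84), Apex1 (0.82) and Mob4 (0.82), and Cavin4 by Ppp1r27 (0.78), Itga7 (0.76), the laminin-binding integrin of muscle fibers, and Itpkc (0.76).

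The cells that carry caveolae were compared through their marker genes. Of 17 endothelial markers, 0 were called in T against C (edgeR), with 10 higher and 7 lower and a median log2 fold change of 0.13, against -0.00125 over all genes. An unadjusted p under 0.05 was found for 9 of the 17, against 14.2% of all genes, and DESeq2 called 3, against 2.86%. Their summed level was 1100 to 1300 CPM in C and 1140 to 1610 CPM in T, and no marker was at 0 in any library. Averaged over training, 1 of the 17 was called, against 1.36% of all genes. It was Emcn, the sialomucin of capillary and venous endothelium, with a log2 fold change of -0.40 (SE 0.0821, adjusted p = 0.0189). Without the fourth mice of T and TE, the adjusted p of Emcn was 0.0558.

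After subtraction of group means, Cav1 had a Pearson's r of 0.01 with the mean log2 CPM of the endothelial markers (permutation p = 0.965) and a Spearman's rho of 0.22 (permutation p = 0.46). The r over all libraries is not given for Cav1 because its tumor-bearing and tumor-free mice formed separate clusters. For Cavin2 the r over all libraries was 0.20 and the rho 0.05 (permutation p = 0.452 and 0.857), and without the 2 libraries farthest from the median marker level the r was 0.18. Within groups the r of Cavin2 was 0.62 and the rho 0.57 (permutation p = 0.0623 and 0.0711). Cavin3 had 0.58 and 0.58 (permutation p = 0.0534 and 0.0542) and Cavin1 0.55 and 0.58 (permutation p = 0.0702 and 0.0487). Cav3 had -0.54 and -0.50 (permutation p = 0.107 for both). The r was 0.29 for Cav2 and 0.03 for Cavin4 (permutation p = 0.201 and 0.948). Adjusted over all 14 member and list pairs (Benjamini-Hochberg), the p of the r within groups was 0.965 for Cav1 and 0.245 for each of Cavin2, Cavin3, Cavin1 and Cav3. That of Cavin2 over all libraries was 0.528.

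Of the 18 myofiber markers, 0 were called in T against C by edgeR or DESeq2. There were 10 higher and 8 lower, and 4 had an unadjusted p under 0.05, against 14.2% of all genes. Over the 16 libraries, Pearson's r of Cav3 with their mean log2 CPM was 0.70 (permutation p = 0.00245, adjusted p = 0.0343). Spearman's rho was 0.65 (permutation p = 0.00804, adjusted p = 0.104). Without the 2 libraries farthest from the median marker level the r was 0.69 (permutation p = 0.00661, adjusted p = 0.0925) and the rho 0.745 (permutation p = 0.00309, adjusted p = 0.0433). Within groups it was 0.61 (permutation p = 0.0456, adjusted p = 0.245). For Cavin4 the r with the same markers was 0.21 and the rho 0.26 (permutation p = 0.427 and 0.336, adjusted p = 0.528 and 0.47). The widely expressed members were negative with them. Cavin3 had an r of -0.57 and a rho of -0.61 (permutation p = 0.0214 and 0.0149, adjusted p = 0.15 and 0.104). Cavin2 had -0.48 and -0.52 (permutation p = 0.0574 and 0.0405, adjusted p = 0.224 and 0.189). The r was -0.22 for Cav1, -0.415 for Cav2 and -0.34 for Cavin1.

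**Figure D4:**
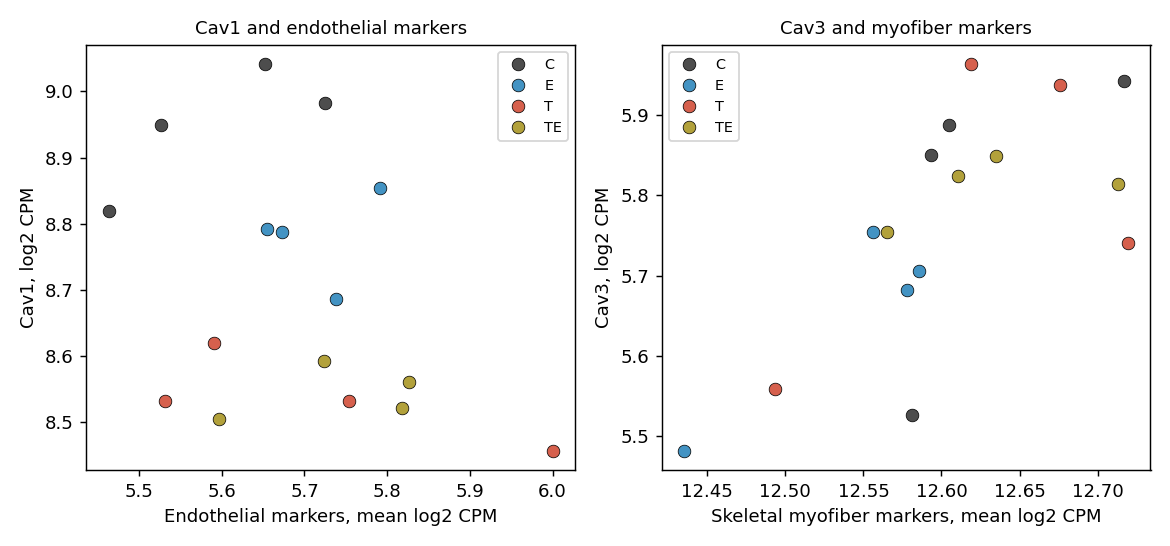
Log2 CPM of Cav1 against the mean log2 CPM of 17 endothelial markers on the left, and of Cav3 against that of 18 myofiber markers on the right, 1 point for each of 16 mice and colors for the groups. The tumor-bearing mice (T, TE) lie below the tumor-free mice in Cav1. The endothelial marker levels overlap in part, from 5.46 to 5.79 in C and E and from 5.53 to 6 in T and TE. Cav3 has an r of 0.70 with the myofiber markers.

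Among the lists of other cell types, only neutrophil and erythroid markers were called in T against C by edgeR. The 12 adipocyte markers summed to 284 to 377 CPM in C, 381 to 701 in E, 412 to 738 in T and 389 to 633 in TE. Of the 12, 11 had a positive log2 fold change in T against C (median 0.99). There 0 were called by edgeR or DESeq2, and 2 had an unadjusted p under 0.05 (14.2% of all genes). In E against C all 12 were higher (median 1.26), 5 of them at an unadjusted p under 0.05 (14.2% of all genes). In TE against E 7 of the 12 were lower (median -0.51), and edgeR called 0 in either comparison. Of 10 neutrophil markers tested, 5 rose in T against C (Ltf, Ngp, Retnlg, S100a8 and S100a9), and of 7 erythroid markers tested 4 rose (0.678% of all genes were called), the heme synthesis enzyme Alas2 by 1.06 on the log2 scale (adjusted p = 0.00136) and the globin genes Hbb-bs, Hba-a1 and Hbb-bt, whose near-identical copies make their single values uncertain. Fibroblast, mural, fast fiber, slow fiber, satellite, lymph node, Schwann and epithelial lists had 0 calls each in T against C with edgeR. DESeq2 called 1 gene each of the satellite, lymph node and Schwann lists, against 2.86% of all genes. At an unadjusted p under 0.05 these lists had 2, 0, 0, 1, 1, 9, 5 and 0 genes in that order, against 14.2% of all genes. The genes tested numbered 12, 12, 10, 10, 10, 19, 10 and 4. In T against C, 9 of the 10 Schwann cell markers were lower (median log2 fold change -0.56), 18 of 19 lymph node markers were lower, and all 10 slow fiber genes were higher (median 0.40). In TE against E the last 2 lists went the other way, with 18 of 19 lymph node markers higher and all 10 slow fiber genes lower (median -0.29). Single mice stood apart in both lists. The lymph node markers summed to 72.4 and 27.6 CPM in the third and the second C mouse, against 9.04 and 12.4 CPM in the other C mice, and the slow fiber genes to 3160 and 2150 CPM in the fourth and the third T mouse, against 1290 and 1130 CPM in the other T mice. The fourth C mouse also had 2320 CPM of slow fiber genes, against 875 to 1400 CPM in the other C mice.

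Averaged over training, 1 gene each of the mural, fibroblast and Schwann lists was called (1.36% of all genes were), all lower in the tumor-bearing mice, as Cav1 and Cav2 were. Cspg4, a proteoglycan of pericytes, had a log2 fold change of -0.40 (adjusted p = 0.0177), with 10 of 12 mural markers lower (median -0.10). The mural list had opposite directions in untrained and trained mice (the difference was not tested for the list), with 10 of 12 higher in T against C (median 0.11) and 10 of 12 lower in TE against E (median -0.31). Gsn, the actin-severing gelsolin of the fibroblast list, had -0.45 (adjusted p = 0.0378), with 11 of 12 lower (median -0.20). The fibroblast list likewise had 7 of 12 higher in T against C (median 0.06), where Cav1 and Cav2 were called, and all 12 lower in TE against E (median -0.54). In E against C, all 12 fibroblast markers (median 0.56) and 11 of 12 mural markers (median 0.34) were higher. Of these lists 0 were called there (0.0881% of all genes), and 11 and 8 had an unadjusted p under 0.05 (14.2% of all genes). Gsn was 864 ± 155 CPM in C, 1281 ± 153 in E, 703 ± 180 in T and 837 ± 56.3 in TE (SD, n = 4). S100b, a calcium-binding protein of glia, had -0.73 (adjusted p = 0.0436), with all 10 Schwann markers lower (median -0.48). Cspg4 was called in all 16 fits that left out 1 mouse. Gsn was called in 3 of them, those without the third C, the first E or the third T mouse, with an adjusted p up to 0.0858. S100b was called in 5, those without the first C, the fourth C, the fourth E, the third T or the fourth TE mouse, with an adjusted p up to 0.0969. Without the fourth mice of T and TE, the adjusted p was 0.054 for Cspg4, 0.1 for Gsn and 0.067 for S100b. Counting this fit and those by other methods, Cspg4 and Gsn were called in 8 of 9 each and S100b in 3 of 9 (adjusted p up to 0.0728). In the same contrast, where 1.36% of all genes were called, 6 neutrophil and 5 erythroid genes rose, and in TE against E, with 0.231% of all genes called, 5 erythroid genes rose, among them Hba-a2. The epithelial markers, given because CT26 is a carcinoma line, summed to 4.64 to 11.2 CPM over the 16 libraries. The part of these cell types in the lower Cav1 and Cav2 was not tested.

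The proteins that assemble, stabilize or move caveolae without being their structural members were compared next. Of 14 such genes, 0 were called in T against C (edgeR), 3 had an unadjusted p under 0.05 (14.2% of all genes), and DESeq2 called 1 (2.86% of all genes). Their median log2 fold change was 0.07, with 8 higher and 6 lower, and in E against C it was 0.19 with 12 higher and 2 lower. In E against C 0 were called by edgeR (0.0881% of all genes) and 2 by DESeq2 (2.24%), and 4 had an unadjusted p under 0.05 (14.2%). Ehd2, the ATPase at the caveolar neck, was 155 ± 12.1 CPM in C, 181 ± 16.6 in E, 142 ± 16.7 in T and 155 ± 10.2 in TE (SD, n = 4), and its log2 fold change in T against C was -0.13 (adjusted p = 0.534).

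Pacsin3, the muscle form of the membrane-bending pacsins, was 181 ± 24.2 CPM in C and 190.3 ± 6.41 in T, and Pacsin2 was 57.9 ± 4.79 in C and 66.2 ± 3.72 in T. Pard3, a polarity protein, was 24.2 ± 1.12 CPM in C and 29.4 ± 1.91 in T without overlap, as for 4.03% of all genes tested with T above C, and its log2 fold change was 0.28 (SE 0.0731, adjusted p = 0.0888). Pacsin1, the neuronal form, was near the limit of detection, at 0.274 ± 0.123 CPM in C. In TE against E 0 of the 14 genes were called by edgeR (0.231% of all genes) and 0 by DESeq2 (1.21%). An unadjusted p under 0.05 was found for 2 of the 14 (9.23% of all genes), with 4 higher and 10 lower and a median of -0.08.

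Proteins that reside in caveolae or bind caveolins included some that changed with the tumor. Of 24 such genes, 2 were called in T against C, 1 in each direction, against 0.678% of all genes, and DESeq2 called 5, against 2.86%. The endothelial receptor Kdr, the main VEGF receptor, fell by 0.68 on the log2 scale (SE 0.149, adjusted p = 0.0457). Its level was 100.4, 126, 126 and 144 CPM in C, 142, 158, 154 and 148 CPM in E, 77.2, 62.3, 80.4 and 89.3 CPM in T, and 120.04, 72.6, 106 and 73.5 CPM in TE. All T mice lay below all C mice (2.83% of all genes tested) and all TE mice below all E mice (3.95%), and averaged over training the log2 fold change was -0.69 (SE 0.105, adjusted p = 0.00233). The averaged call was kept in all 16 fits that left out 1 mouse. That of T against C was kept in 2 of 8, without the first C mouse and without the fourth T mouse, and the adjusted p reached 0.153 without the fourth C mouse. Without the fourth mice of T and TE it was 0.0249. Counting this fit and those by other methods, the call of T against C was kept in 5 of 10 (adjusted p up to 0.0814) and the averaged call in 9 of 9.

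Nos1, the neuronal nitric oxide synthase that muscle fibers anchor at the sarcolemma, rose in T against C by 0.40 on the log2 scale (SE 0.0812, adjusted p = 0.0335). It was 38.3, 38.5, 36.7 and 34.4 CPM in C, 47.8, 49.9, 45.1 and 47.8 in E, 45.5, 54.5, 54.4 and 41 in T, and 41.6, 44, 45 and 43.2 in TE. All T mice lay above all C mice, as for 4.03% of all genes tested. Its log2 fold change was 0.37 in E against C (adjusted p = 0.0867). In TE against E it was -0.13 (adjusted p = 0.657), and the interaction was -0.54 (SE 0.115, adjusted p = 0.389). The call in T against C was lost without any of the 4 C mice or the third T mouse (adjusted p up to 0.139, without the fourth C mouse) and was kept without the fourth mice of T and TE (0.00824). Counting this last fit and those by other methods, the call was kept in 6 of 10 (adjusted p up to 0.147).

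Plvap, the protein of the diaphragms of endothelial caveolae, was 29.3 ± 8.55 CPM in C, 37 ± 3.4 in E, 50.7 ± 12.3 in T and 44.7 ± 4.57 in TE (SD, n = 4). Averaged over training, the tumor-bearing mice were higher by 0.53 on the log2 scale (SE 0.126, adjusted p = 0.0436), and in T against C the value of 0.79 missed the threshold (SE 0.178, adjusted p = 0.0509). The averaged call was kept in 3 of the 16 fits that left out 1 mouse, those without the second C, the second T or the fourth T mouse, and the adjusted p reached 0.098 without the third TE mouse and was 0.0325 without the fourth mice of T and TE. Counting this last fit and those by other methods, it was kept in 5 of 9 (adjusted p up to 0.0926). The insulin receptor Insr had a log2 fold change of 0.37 in T against C (adjusted p = 0.0704), endothelial Nos3 of -0.18 (adjusted p = 0.420) and the fatty acid transporter Cd36 of 0.39 (adjusted p = 0.214). The endothelial genes Kdr, Emcn and Plvap thus did not share a direction.

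**Figure D5:**
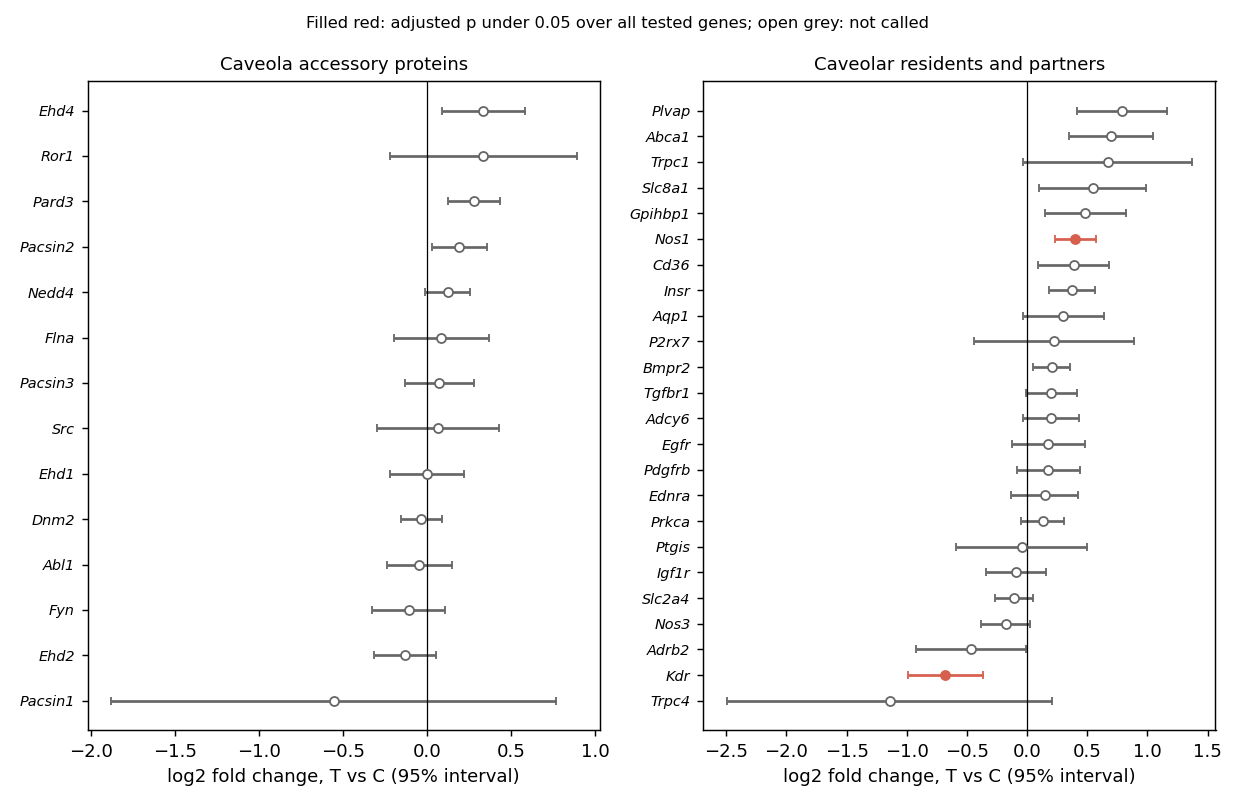
Log2 fold changes in T against C (x axis) with 95% intervals for 14 accessory genes on the left and 24 residents and partners of caveolae on the right, ordered by value, from 4 mice a group. Nos1 (0.40) and Kdr (-0.68) are the filled points that passed an adjusted p of 0.05 over all tested genes.

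Of the 19 genes of T-tubule formation and the triad, where Cav3 acts, 1 was called in T against C, against 0.678% of all genes. Trim72, which seals membrane tears and binds Cav3, was 157, 166, 128 and 139 CPM in C, 141, 138, 141 and 137 in E, 182, 179, 214 and 226 in T, and 172, 154, 161 and 139 in TE. All T mice lay above all C mice, which held for 4.03% of all genes tested, and the log2 fold change was 0.44 (SE 0.0914, adjusted p = 0.0347). It was 0.17 in TE against E (adjusted p = 0.607), and averaged over training it was 0.31 (SE 0.0646, adjusted p = 0.0230). The call in T against C was lost without the third C, the fourth C, the third T or the fourth T mouse (adjusted p up to 0.139), and the averaged call without the fourth C or the third TE mouse (up to 0.0612). Without the fourth mice of T and TE, the adjusted p was 0.0577 in T against C and 0.0245 averaged over training. Counting this fit and those by other methods, the call was kept in 4 of 10 in T against C (adjusted p up to 0.136). Averaged over training it was kept in 5 of 9 (up to 0.068).

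Of the 19 genes of the dystrophin complex, which Cav3 also joins, Nos1 was the only call in T against C, against the same 0.678%. Of 21 genes of sterol supply and sphingolipid metabolism, 0 were called in T against C by edgeR (4 at an unadjusted p under 0.05, against 14.2% of all genes) and 3 by DESeq2 (2.86% of all genes). Averaged over training, with 1.36% of all genes called, 1 was called, Hmgcs1, an enzyme of cholesterol synthesis, with a log2 fold change of -0.24 (adjusted p = 0.0188, and 0.0598 without the fourth mice of T and TE), and 18 of the 21 had a negative value, with a median of -0.11. The sum of the 7 caveolar genes was 1130 to 1270 CPM in C, 1090 to 1180 in E, 1010 to 1050 in T and 982 to 1120 in TE.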

How the data were processed

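Poly(A) RNA from 16 gastrocnemius muscles was sequenced, and each library's group and number follow the labels. The authors deposited raw counts per gene and FPKM values. Per the submitters' processing notes, fastp 0.20.1, HISAT2 2.1.0, HTSeq 0.11.2 and GRCm39 were used, while the annotation release and strand setting are not given in the sources used here. The deposited FPKM values were found equal to counts over gene length over total counts for 16037 genes with more than 50 counts. The tables held 0 columns of other samples. Totals of 35628211 to 37635741 counts per library put 3 counts at 0.0797 to 0.0842 CPM, and this covers counting error only, since PCR copies were not marked.

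The contrasts were fitted in edgeR 4.0.16 under R 4.3.3 (filterByExpr, TMM factors of 0.947 to 1.05, glmQLFit and glmQLFTest, 1 coefficient per group, all 16 libraries). The p-values were two-sided and adjusted by the Benjamini-Hochberg method over 14749 genes in each of 7 contrasts. A gene was called at an adjusted p under 0.05. The edgeR fit of T against C was also run on simulated counts. These were drawn with the dispersions that edgeR had fitted, so its assumptions held there by design. The other fits were not run on simulated counts. DESeq2 1.42.0, limma 3.58.1 (limma-voom with sample weights on the counts, and limma on log2(FPKM + 1)), DESeq2 size factors, no filter, only the groups compared, a replicate block and fits without 1 mouse were alternatives. The fit without the fourth T and TE mice was chosen after seeing the data. Correlations with marker lists used 100000 permutations.

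The members, gene lists and tests were chosen with earlier results of these data known. Named genes were the 7 members, the called genes of each list (at most 4 per list and contrast by smallest adjusted p), the accessory genes and the 3 genes closest to each member. The values of Insr, Nos3 and Cd36 and the fifth neutrophil gene were named outside this rule, after their values were seen. Motifs were searched on both strands of GRCm39 (GENCODE vM39). Mice with the same replicate number in different groups are different animals, and the correlation of their deviations from the group means ranged from -0.241 to 0.214 over 24 pairs, so the samples were not paired.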

Additional observations from a re-analysis of the deposited data

Results flagged for a closer look

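In 28 groups of 4 mice (7 genes in 4 groups), the gap of the highest or lowest mouse to its neighbor was compared with the range of the group. It exceeded Dixon's critical value for 4 samples in 2 groups, and chance alone gives about 1 in 20. For Cavin2 in group C the ratio was 0.923, since the first mouse had 115 CPM and the other 3 had 143 to 145 CPM. For Cavin4 in group C it was 0.85, since the fourth mouse had 120 CPM and the other 3 had 125 to 126 CPM. Without the first C mouse, the log2 fold change of Cavin2 in T against C was -0.41 in place of -0.34, and it was not called in either fit.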

How the results depend on the processing

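The call of Cav1 in T against C was kept in all 18 alternative fits (adjusted p 1.37e-09 to 0.049) and that of Cav2 in 7 of 18 (0.000763 to 0.134). The count of the 7 genes called in T against C was 2. It was 1 with only the groups compared, 1 with limma on log2(FPKM + 1), log2(FPKM + 0.1) or a mean FPKM of at least 1, 1 without the fourth T and TE mice, and 1 to 2 when a single mouse was left out. In TE against E it was 1 with DESeq2 in place of 0. Averaged over training it was 1 in place of 2 without the fourth T and TE mice and 3 with DESeq2, with limma-voom or without the third T mouse. The r of Cav3 with the myofiber markers was 0.611 within groups and 0.687 without 2 libraries, both with an adjusted p above 0.05. The causes were not tested. With the replicate number as a block, 2 of the 7 genes were called in T against C (adjusted p = 0.0102 for Cav1 and 0.0351 for Cav2) and 77 of all genes, against 100 without the block, so the block changed no call among the 7.

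The number of all genes called in T against C was 421 with DESeq2, 174 without a filter, 30 with only the groups compared, 33 to 39 with limma on FPKM, 16 without the fourth C mouse and 255 without the second T mouse. In TE against E it was 34, with 178 for DESeq2 and 18 to 33 without 1 mouse. In E against C it was 13, with 279 for DESeq2, 183 with only the groups compared and 0 to 35 without 1 mouse. Averaged over training, it was 201, with 478 for DESeq2. Cav3 and Cavin3 changed sign in 10 of the 126 values of T against C, none of them called. Under the other scalings the median log2 fold change of all genes lay between -0.0286 and 0.0225. Cavin3 and Cav3 were called in no contrast, and the size of difference that 4 mice a group could detect was not tested.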
